A study of Mus musculus with 6 samples.

Results

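Reelin and the proteins that carry its signal into the cell were followed through 9 genes: *Reln*, *Lrp8*, *Vldlr*, *Dab1*, *Fyn*, *Crk*, *Crkl*, *Rapgef1* and *Pafah1b1*. They were found in the deposited count table by their gene symbols, which gave 9 rows of the 55421 genes listed. The table holds 6 libraries of hippocampal RNA from male wild-type C57BL/6N mice aged 8 to 10 weeks. The 3 SP libraries are from mice given substance P under the skin (10 µM, 100 µL) on each of 14 days, and the 3 vehicle libraries are from mice given saline in that volume. Libraries are numbered 1, 2 and 3 within a group, a number that the labels name batch. The study's methods count 3 mice in each group, which gives 1 mouse for each library. All differences below are those of the libraries labelled SP relative to the libraries labelled vehicle. No gene in the table was tested as an independent check of which group received SP, so each direction rests on the labels alone. The study's paper names *Reln* among its up-regulated genes and the myelination genes *Mag* and *Mbp* among its downregulated ones. By the labels, *Reln* and the oligodendrocyte markers below went in the opposite directions. The cause of this difference from the paper was not tested.

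Reelin is a large glycoprotein that neurons secrete into the extracellular matrix. It binds the lipoprotein receptors ApoER2, encoded by *Lrp8*, and the very low density lipoprotein receptor, encoded by *Vldlr*, and their clustering leads Src family kinases such as Fyn to phosphorylate the adaptor Dab1. Phosphorylated Dab1 then recruits further proteins, among them Crk and CrkL, and the pathway lays down the cell layers of the developing cortex and hippocampus. In the adult hippocampus reelin is made mainly by GABAergic interneurons and by remaining Cajal-Retzius cells, and it is known to favour long-term potentiation.

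*Reln* was the gene of the 9 whose level differed most between the groups. It was 26.1% lower in SP libraries (log2 fold change -0.44, 95% interval -0.56 to -0.31), whereas the receptors, Dab1, the kinase and the downstream adaptors had log2 fold changes from -0.076 to 0.083. None of the 9 genes passed the threshold of the comparison (FDR < 0.1 and |log2FC| > 0.3 in edgeR's quasi-likelihood test), which 5 of 17069 tested genes, or 0.0293%, did pass (0.0176% higher and 0.0117% lower in SP). *Reln* had an FDR of 0.135 and an unadjusted p of 6.35e-05, and 7 tested genes had a smaller p. At an unadjusted p under 0.05 stood 1 of the 9 genes, or 11.1%, a share near the 10.1% of all tested genes (4.48% higher and 5.59% lower in SP).

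*Reln* (ENSMUSG00000042453) lies on the minus strand of chromosome 5 of GRCm38, from 21884454 to 22344702, a span of 460249 bases. Its promoter is shown because it belongs to the gene with the largest difference in the pathway. The window runs from 250 bases before to 50 bases after the RefSeq start, at chr5:22344656-22344955 of GRCm38.p6 on the minus strand, and capitals mark the GC box GGGCGG.

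Reln promoter: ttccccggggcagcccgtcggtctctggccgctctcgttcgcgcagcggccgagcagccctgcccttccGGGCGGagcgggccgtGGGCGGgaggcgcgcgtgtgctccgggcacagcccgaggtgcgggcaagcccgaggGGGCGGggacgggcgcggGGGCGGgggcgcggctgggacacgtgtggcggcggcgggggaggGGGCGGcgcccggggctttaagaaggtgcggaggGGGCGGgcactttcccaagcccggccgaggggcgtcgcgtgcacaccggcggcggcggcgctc

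The window held 6 GC boxes, with GGGCGG searched on both strands and no overlap among the matches, and it held 47 CpG dinucleotides. Of 32851 such windows in the RefSeq table, 35.7% held at least 1 GC box and 1.35% held 6 or more. The 12 windows of the other 8 genes held 0 or 1. These matches describe the letters of the window, and no binding or methylation was measured.

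The ligand was measured with 1449 to 2671 counts in each library. In CPM, which scales counts by the normalized library size, *Reln* was at 103, 84.7 and 96.9 in vehicle 1, 2 and 3. It was at 79.6, 60.1 and 71.4 CPM in SP 1, 2 and 3. The highest SP library was thus below the lowest vehicle library, and within each replicate number the SP library was the lower one. The group means were 94.9 ± 9.44 CPM for vehicle and 70.4 ± 9.75 CPM for SP (SD, n = 3 libraries each). The log2 differences within the replicate numbers 1, 2 and 3 were -0.38, -0.49 and -0.44. These 3 differences lay close together, while the level itself varied by 9.94% of the mean among vehicle libraries and by 13.9% among SP libraries.

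The replicate number was part of the fit, and this bears on *Reln* directly. The library numbered 2 was lowest and the library numbered 1 highest in both groups. With the number as a block the standard error of the log2 fold change was 0.0539. Without it the standard error was 0.103, the unadjusted p 0.00225 in edgeR's quasi-likelihood test and the FDR 0.282. Across tested genes, libraries of the same number shared little of their deviation from the group means (Pearson's r of 0.014, -0.0656 and 0.0734). The narrower interval of *Reln* with the block thus rests on a likeness within numbers that was not seen across genes. *Reln* passed the threshold with DESeq2 (FDR 0.00184 with the replicate block and 0.00773 without it), with no filter on low counts (FDR 0.000551) and without replicate 2 (FDR 0.0612). It did not pass without replicate 1 (FDR 0.435) or replicate 3 (FDR 0.116), with voom (0.237), with relative log expression (0.131) or upper quartile normalization (0.140), with at least 10 counts in every library (0.310) or with the length and GC correction (0.313). The log2 fold change itself stayed between -0.47 and -0.41 in the 12 alternative fits.

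**Figure D1:**
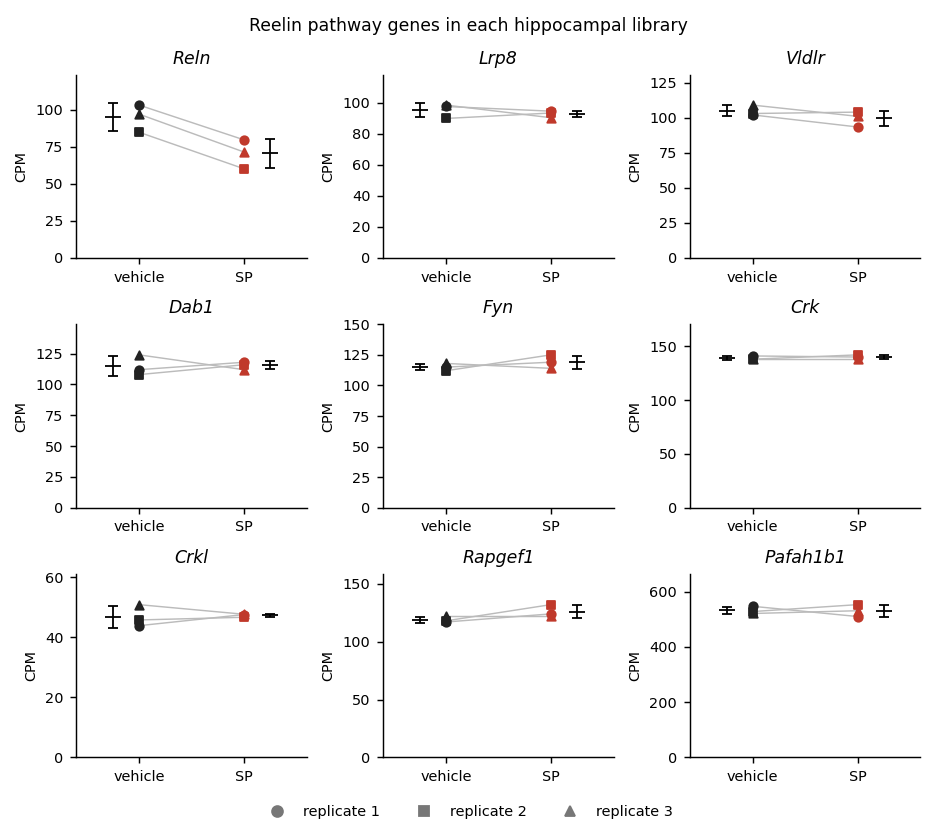
Level of each of the 9 genes in CPM (vertical axis, from 0) in the 3 vehicle and the 3 SP libraries, with marker shapes for the replicate number, grey lines joining libraries of the same number, and bars at the sides for mean ± SD. In the panel of *Reln* all 3 lines run down and the groups do not overlap, while in each other panel the groups overlap.

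Among genes with a mean of at least 10 CPM, a difference of this size was uncommon. Of 10344 such genes, 125 (1.21%) had a log2 fold change at least as far from 0 as that of *Reln*, and 115 of these 125 were lower in SP. The groups did not overlap in 1 of the 9 pathway genes, against 18.2% of all tested genes. A lower level in SP without overlap was seen in 9.03% of tested genes and a higher one in 9.19%.

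The receptors did not show the difference of their ligand. *Lrp8* (chromosome 4 from 107802261 to 107876840) had 97.5, 89.8 and 98.4 CPM in vehicle 1, 2 and 3, and 94.5, 93.3 and 90.3 CPM in SP 1, 2 and 3. All SP libraries lay within the range of the vehicle libraries. The log2 fold change of *Lrp8* was -0.038 (standard error 0.0566, FDR 0.857), and its 95% interval of -0.17 to 0.09 corresponds to 0.888 to 1.07 times the vehicle level.

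*Vldlr* (chromosome 19 from 27216484 to 27254231) had 102, 103 and 109 CPM in vehicle 1, 2 and 3. Its SP libraries had 93.4, 104 and 101 CPM. SP 1 was the lowest of the 6, SP 3 was also below every vehicle library, and SP 2 lay within the vehicle range. The log2 fold change was -0.076 (95% interval -0.20 to 0.05, FDR 0.685), and without replicate 2 it was -0.12 with an FDR of 0.436 and an unadjusted p of 0.0496 in edgeR. The ratio of the receptors, as log2 of *Lrp8* over *Vldlr* CPM, was -0.14 ± 0.06 in vehicle and -0.10 ± 0.10 in SP (SD, n = 3 each, p = 0.7 in a two-sided exact permutation test whose smallest p is 0.1).

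*Dab1* (chromosome 4 from 103619359 to 104744844), the adaptor that binds the tails of both receptors, had 112, 108 and 124 CPM in vehicle and 118, 116 and 112 CPM in SP, in replicate order. The SP libraries fell inside the vehicle range, and the SP library was the higher one in replicates 1 and 2 and the lower one in replicate 3. The log2 fold change of *Dab1* was 0.016 (95% interval -0.13 to 0.17, FDR 0.954). *Fyn* (chromosome 10 from 39368855 to 39565381), the kinase that phosphorylates Dab1, had 115, 112 and 118 CPM in vehicle and 119, 125 and 114 CPM in SP. SP 2 was the highest library, and the groups overlapped. The log2 fold change of *Fyn* was 0.049 (95% interval -0.08 to 0.18, FDR 0.817).

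Downstream of Dab1, the genes of the adaptors and of the exchange factor they bring to the membrane varied little. *Crk* (chromosome 11 from 75679259 to 75706908) had all 6 libraries between 138 and 142 CPM, and a log2 fold change of 0.009 (FDR 0.967). Its relative *Crkl* (chromosome 16 from 17451987 to 17487434) ranged from 43.9 to 50.9 CPM in vehicle and from 46.7 to 47.7 CPM in SP, a log2 fold change of 0.015 (FDR 0.956). *Rapgef1* (chromosome 2 from 29619720 to 29740978) encodes the exchange factor that activates the small GTPase Rap1. It had 117, 118 and 122 CPM in vehicle and 124, 132 and 122 CPM in SP, the largest positive log2 fold change of the 9 at 0.083 (95% interval -0.05 to 0.21, FDR 0.649). The log2 differences within replicates 1, 2 and 3 were 0.082, 0.17 and -0.001, and the fitted value was 0.040 once replicate 2 was left out.

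*Pafah1b1* (chromosome 11 from 74673949 to 74724670) encodes Lis1, a regulator of the motor protein dynein that can bind phosphorylated Dab1. It was the most abundant of the 9, with 521 to 547 CPM in vehicle and 510 to 553 CPM in SP, and a log2 fold change of -0.004 (95% interval -0.14 to 0.13, FDR 0.989). In all 8 genes other than *Reln*, the log2 differences within the replicate numbers had both signs. Their 95% intervals together ran from 0.868 to 1.16 times the vehicle level. Relative to the mean of the other 8 genes, log2 *Reln* was -0.25, -0.51 and -0.40 in vehicle 1, 2 and 3 and -0.63, -1.08 and -0.77 in SP 1, 2 and 3. The groups were separate on this scale, which largely restates the difference of *Reln* because the other 8 genes differed little. The measure was chosen after the values had been seen and is given without a test.

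**Figure D2:**
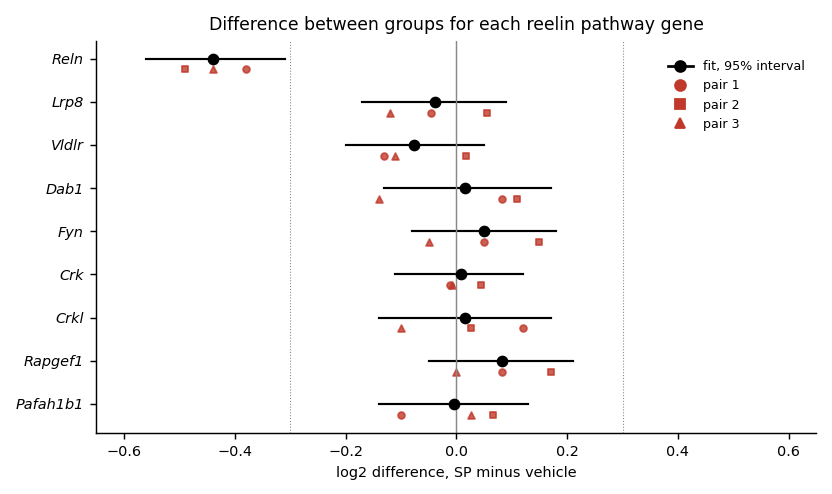
Log2 difference between SP and vehicle (horizontal axis) for each gene, as the fitted log2 fold change with its 95% interval in black and as the difference within each replicate number in red. Dotted lines mark 0.3 in each direction. The interval of *Reln* runs from -0.56 to -0.31, and the other 8 intervals cover 0.

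Levels of different genes can be compared only per length. As counts per kilobase of merged exons, scaled to the same total in each library as TPM values are, *Reln* was the lowest of the 9 in both groups, at 13.1 ± 1.34 in vehicle and 9.57 ± 1.05 in SP (SD, n = 3 each). *Pafah1b1* was the highest, at 181 ± 6.12 in vehicle, 13.8 times the level of *Reln*. Between them in vehicle came *Crk* (96.3), *Fyn* (86.2), *Rapgef1* (52.7), *Dab1* (47.4), *Vldlr* (34.1), *Crkl* (30.4) and *Lrp8* (29.7). Only the neighbours *Crkl* and *Lrp8* overlapped in vehicle. In SP the neighbours *Crk* and *Fyn*, *Vldlr* and *Crkl*, and *Crkl* and *Lrp8* overlapped.

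*Reln* has 15 annotated transcripts, and its merged exons of 23738 bases are longer than its longest transcript of 11699 bases. With the longest transcript as the length, *Reln* was at 21.8 ± 2.24 in vehicle (SD, n = 3) and still last, but its vehicle libraries then overlapped those of *Crkl* at 24.9 ± 1.79. The genes that overlap the 9 on either strand could have taken little from them, since each of the 16 had at most 20 counts in a library.

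**Figure D3:**
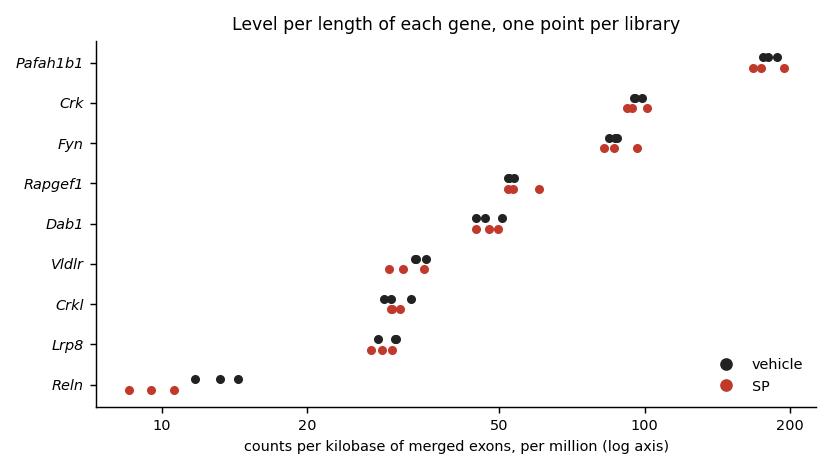
Library-scaled counts per kilobase of merged exons (horizontal log axis) of each gene, 1 point for each library, vehicle in black and SP in red. *Reln* is at the foot of the order in both groups, with 11.7 to 14.4 in vehicle and 8.55 to 10.6 in SP, and *Pafah1b1* is at the top.

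A list of 77 other genes around the pathway was read from the same fit, and 76 of them were tested. No gene of the list passed the threshold. At an unadjusted p under 0.05, 6 were higher in SP and 4 lower, together 10 of 76 where 10.1% of all tested genes stood at that level. The median log2 fold change of the list was 0.039, against 0.0015 over all tested genes. DESeq2 with the replicate block called 1 of them, and edgeR with no filter on low counts called 3.

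Among the proteases that act on or around reelin, *Adamts4* had 21.9, 20.7 and 21.9 CPM in vehicle. In SP it had 27.0, 36.2 and 24.7 CPM, and its log2 fold change was 0.43 (FDR 0.384, standard error 0.121). *Adamts4* is also a gene of oligodendrocytes. *Plat*, which encodes tissue plasminogen activator, had a log2 fold change of 0.17 (FDR 0.436). Every SP library was above every vehicle library for both proteases. *Adamts2*, *Adamts3*, *Adamts5*, *Furin* and *Pcsk6* had log2 fold changes of -0.16, -0.015, -0.42, 0.058 and 0.16 with unadjusted p from 0.0671 to 0.868.

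Of the other ligands of the reelin receptors, *Thbs1*, which encodes thrombospondin-1, had the smallest p. Its level was 6.75, 8.69 and 7.95 CPM in vehicle and 4.56, 6.02 and 7.27 CPM in SP (log2 fold change -0.40, FDR 0.416), and the groups overlapped. *Apoe* and *Clu*, the apolipoproteins made by astrocytes, had log2 fold changes of 0.11 and -0.047. *Mylip* and *Snx17*, which act in the breakdown and the recycling of these receptors, had -0.15 and 0.021, with FDRs of 0.555 and 0.929.

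*Src*, a kinase of the same family as Fyn, was at 113, 116 and 110 CPM in vehicle and at 125, 131 and 122 CPM in SP, a log2 fold change of 0.16 (FDR 0.412). *Dab2*, a relative of *Dab1* best known from endocytosis and from macrophages, had 26.5, 24.1 and 30.9 CPM in vehicle and 13.4, 18.6 and 21.0 CPM in SP. This was the largest difference in the list, at -0.63 on the log2 scale (FDR 0.308, standard error 0.115), and the groups did not overlap. The log2 differences within replicates 1, 2 and 3 were -0.98, -0.37 and -0.55. SP 1 was also the lowest library for the choroid plexus markers given below, and a link was not tested. *Dab2* was the gene that DESeq2 called with the replicate block. Genes that act in the breakdown of Dab1 had no member at an unadjusted p under 0.05, and *Cul5* and *Rnf7* had log2 fold changes of -0.017 and 0.019.

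At the membrane, *Efnb2* and *Itgb1* (an ephrin and an integrin subunit, both described as reelin partners) had log2 fold changes of -0.35 and -0.20 with FDRs of 0.424 and 0.415, and *Efnb2* was lowest in SP 2. *Mapk8ip1*, a scaffold that binds the tail of ApoER2, had 0.13 (FDR 0.458), *Nectin3*, a cell adhesion gene of the Rap1 arm, had 0.24 (FDR 0.417), and *Nck2*, an adaptor that links receptors to actin, had 0.18 (FDR 0.440). In the arm of PI3K and Akt, 0 of 11 genes reached an unadjusted p under 0.05. The same held for 0 of 11 genes around Lis1.

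**Figure D4:**
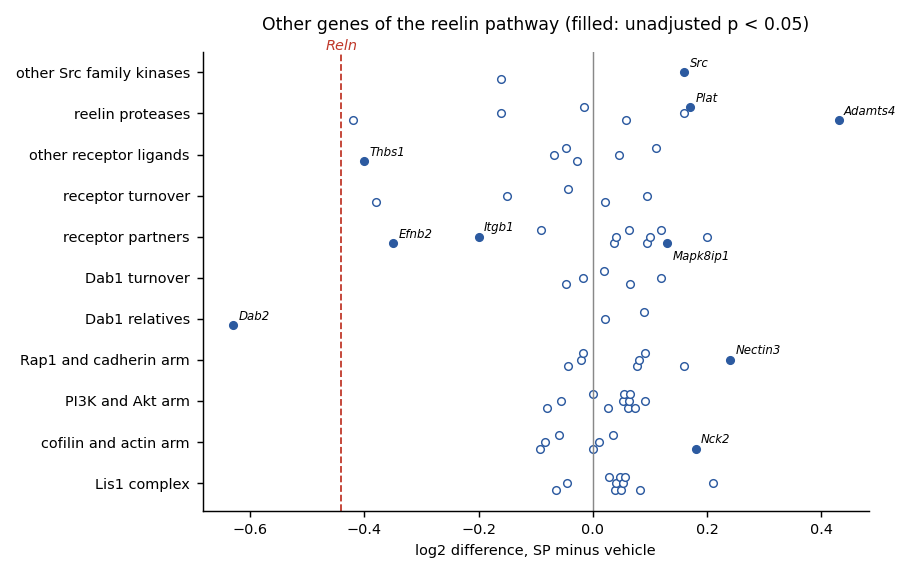
Log2 difference between SP and vehicle (horizontal axis) of the 76 other pathway genes tested, grouped by role, with filled points and names for the 10 genes at an unadjusted p under 0.05. The dashed line marks *Reln* at -0.44; *Dab2* is the only gene of the list further to the left.

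Since reelin comes from few cell types, marker genes of these types were read in the same libraries. In whole tissue, fewer cells of a type and less RNA per cell cannot be told apart. Of 12 GABAergic interneuron markers, 10 were lower in SP, where 50.5% of all tested genes had a positive log2 fold change. Of the 12, 0 passed the threshold and 1 was at an unadjusted p under 0.05. Their median log2 fold change was -0.107, with a range from -0.34 for *Vip* to 0.13 for *Pvalb*. Within replicate 2 all 12 were lower in SP, while within replicates 1 and 3 the signs were mixed. The summed level of these markers was 1060, 1170 and 1110 CPM in vehicle 1, 2 and 3. It was 1110, 889 and 1140 CPM in SP 1, 2 and 3. SP 2 was lowest for these markers and for *Reln*. Vehicle 2, in contrast, was the highest library for these markers and the lowest vehicle library for *Reln*. Of 8 markers of neurogliaform and other Ndnf interneurons, a type rich in reelin, 7 were lower in SP. Their median log2 fold change was -0.072, with a range from -0.31 for *Cplx3* to 0.067 for *Gabrd*. Of the 8, 0 were at an unadjusted p under 0.05. A lower level in SP without overlap was seen in 2 of them, against 9.03% of all tested genes. Their sums were 335 to 355 CPM in vehicle and 317 to 343 CPM in SP, with overlap.

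Relative to the mean log2 CPM of the GABAergic markers, log2 *Reln* was 1.62, 1.13 and 1.45 in vehicle 1, 2 and 3 and 1.16, 1.13 and 0.94 in SP 1, 2 and 3. On this scale the libraries numbered 2 were level and the groups overlapped. The difference of -0.32 had p = 0.2 in a two-sided exact permutation test over the 6 libraries, whose smallest p is 0.1, and without replicate 2 it was -0.48. Relative to the neurogliaform markers the difference was -0.33 (p = 0.2, exact permutation test), also with overlap.

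Cajal-Retzius markers gave another picture. Of the 6 tested, 2 were at an unadjusted p under 0.05 and both were higher in SP, *Cxcr4* and *Lhx1*, neither of which is confined to these cells. *Trp73*, a transcription factor gene typical of Cajal-Retzius cells, had 7.52, 5.58 and 7.66 CPM in vehicle and 5.37, 7.39 and 7.27 CPM in SP, a log2 fold change of -0.049 (FDR 0.946). *Lhx1* had 8 to 32 counts in a library and a log2 fold change of 1.07, and *Cxcr4* had 0.51. The others, *Nhlh2*, *Ebf3* and *Calb2*, had 0.23, 0.12 and -0.030, and 0 of the 6 passed the threshold. The summed level of the list was 47.6 to 54.4 CPM in vehicle and 51.4 to 57.0 CPM in SP, with overlap. Most of this sum was *Calb2*, with 32.1 to 40.3 CPM in vehicle and 31.9 to 39.6 CPM in SP, so the sum mainly follows that gene. Relative to the mean log2 CPM of the list, in which *Lhx1* weighs as much as any other gene, *Reln* had a difference of -0.71 without overlap (p = 0.1, the smallest that the exact permutation test allows), with -0.57 to -0.90 when 1 replicate number was left out.

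**Figure D5:**
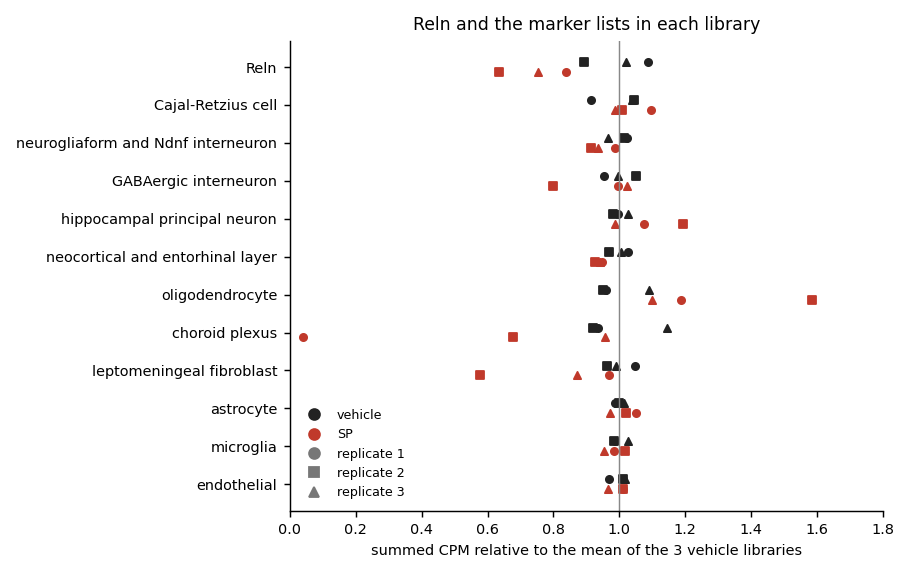
CPM of *Reln* and summed CPM of 11 marker lists in each library, relative to the mean of the 3 vehicle libraries (horizontal axis, from 0), vehicle in black and SP in red, with marker shapes for the replicate number. SP 2 is lowest for *Reln* and for GABAergic interneurons and highest for oligodendrocytes, and SP 1 is near 0 for choroid plexus. Vehicle 2 is the lowest vehicle library for *Reln* and the highest library for GABAergic interneurons.

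Markers of other cell types also differed between the libraries, although 0 of the 81 marker genes tested passed the threshold, and their part in the difference of *Reln* was not tested. Genes that mark the principal neurons of the hippocampus were present in all libraries. Their sums were 994 to 1040 CPM in vehicle and 1000 to 1210 CPM in SP, with overlap. Of these 9 genes, 8 were higher in SP, where 50.5% of all tested genes had a positive log2 fold change. At an unadjusted p under 0.05 stood 5 of the 8. The log2 fold changes ran from -0.16 for *Wfs1*, the 1 gene that was lower, to 0.52 for *Spink8*. Of 8 markers of neocortical and entorhinal layers, 4 were lower at that level and 0 higher, from *Cux2* at -0.64 to *Lmo3* at 0.058. *Foxp2*, *Fezf2* and *Rasgrf2* had log2 fold changes of -0.11, -0.013 and -0.019. The sums of the list, 390 to 414 CPM in vehicle and 373 to 382 CPM in SP, did not overlap. Reelin is also made in layer II of the entorhinal cortex, which borders the hippocampus. The share of such tissue in these libraries was not measured, and its part in the difference of *Reln* was not tested.

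The 8 oligodendrocyte markers were all higher in SP, where 50.5% of all tested genes had a positive log2 fold change. At an unadjusted p under 0.05 stood 6 of them. Their sums of 2170 to 2490 CPM in vehicle and 2510 to 3620 CPM in SP did not overlap either, with the highest sum in SP 2. Choroid plexus markers summed to 3780 to 4700 CPM in vehicle and to 170, 2780 and 3930 CPM in SP 1, 2 and 3. Without replicate 1 the log2 fold change of *Reln* was -0.47 (FDR 0.435), and without replicate 2 it was -0.41 (FDR 0.0612). Marker differences remained among the other libraries, so these fits do not separate *Reln* from tissue content, and a link was not tested. Leptomeningeal markers summed to 147 to 160 CPM in vehicle and 88.0 to 148 CPM in SP, with overlap, as for choroid plexus. The sums of astrocyte, microglia and endothelial markers overlapped too, with median log2 fold changes of 0.025, -0.035 and 0.036.

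The 5 genes whose levels followed *Reln* most closely over the 6 libraries were *Ipcef1*, *Tmem132d*, *Vip*, *Acvr2a* and *Rgs6*. Likeness was the root mean square distance between log2 CPM profiles, each centred on its mean, and it was 0.0596 for *Ipcef1* and 0.0901 for *Rgs6*, where the median over 10343 genes was 0.277 and a flat profile was at 0.262. *Ipcef1* had 35.6, 33.0 and 36.7 CPM in vehicle and 30.5, 23.2 and 27.3 CPM in SP. *Vip*, the interneuron peptide in the list of GABAergic markers, had 14.5, 13.2 and 15.3 CPM in vehicle and 13.3, 9.09 and 12.0 CPM in SP. Of the pathway itself the closest was *Lrp8* at 0.235, which ranked 1874.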

How the data were processed

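Hippocampal RNA of SP and vehicle mice (3 libraries each) was sequenced by the authors with a stranded mRNA kit. Per the labels, Trim Galore, STAR and Salmon were used on the GRCm38 build. The authors deposited estimated counts per gene, scaled neither for library size nor for length. Libraries held 22349941 to 27605937 counts, at which 3 counts correspond to 0.109 to 0.135 CPM. Counts were rounded and tested in R 4.3.3 with edgeR 4.0.16: filterByExpr (minimum count 10, minimum total 15, 17069 genes kept), TMM normalization, and the quasi-likelihood test with the replicate number as a block, since the methods adjust for replicates and the labels call that number a batch. P-values were adjusted over all tested genes by the Benjamini-Hochberg method and called at FDR < 0.1 and |log2FC| > 0.3. Fits were also run on simulated counts with known changes. These counts held no effect of the replicate number, so they cannot bear on the choice of the block. In libraries with the same number, deviations from the group means had Pearson's r of 0.014, -0.0656 and 0.0734 across genes, which are not independent.

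Alternatives were no block, DESeq2 1.42.0 with and without the block, voom in limma 3.58.1, relative log expression or upper quartile normalization, no filter, at least 10 counts in every library, a loess correction for transcript length and GC content, and each replicate number left out. Positions and lengths came from GENCODE M21 on GRCm38. The annotation release the authors used is not given in the sources used here. *Dlx6os1* has 2 rows, and the one with more counts was used. Log2 CPM used a prior count of 2. The 9 genes, the lists and the tests were chosen with earlier results of these data known. Genes named were the 9, the listed pathway genes at an unadjusted p under 0.05 and the extremes of each list of neuron markers. The 5 profiles nearest to *Reln* with a mean of at least 10 CPM were named too. The extremes of the other marker lists are not named. Other genes named from the lists were chosen after their values were seen.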

Additional observations from a re-analysis of the deposited data

How the results depend on the processing

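The log2 fold change of *Reln* kept its direction in all 12 alternatives, and 108 such values over the 9 genes held 96 with direction and call kept, 4 in which *Reln* passed the threshold and 8 reversals, all of differences near 0. Reversed were *Pafah1b1* with the length and GC correction (0.081) and without replicate 1 (0.046), *Dab1* without replicates 1 (-0.017) and 2 (-0.031), *Crkl* without replicate 1 (-0.035), *Fyn* (-0.00038) and *Crk* (-0.0096) without replicate 2, and *Lrp8* without replicate 3 (0.0017). With each replicate number left out in turn, *Lrp8* ran from -0.085 to 0.0017, *Dab1* from -0.031 to 0.092, *Fyn* from -0.00038 to 0.096, *Crk* from -0.0096 to 0.019, *Crkl* from -0.035 to 0.068, *Pafah1b1* from -0.039 to 0.046, *Vldlr* from -0.12 to -0.048 and *Rapgef1* from 0.04 to 0.12. With the length and GC correction *Vldlr* was at -0.022 and *Rapgef1* at 0.043.

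Without the replicate block 2 genes in all passed the threshold and 0 of the 9 did. DESeq2 called 36 genes with the block and 133 without it, voom 2, no filter on low counts 384, and both the stricter filter and the length and GC correction 0. Leaving out 1 replicate number gave 9 to 36 genes. Of the 9 genes, 1 (*Reln*) passed with either DESeq2 fit and with no filter, and 0 to 1 passed when a replicate number was left out. Of the other pathway genes, 1 and 2 passed with DESeq2 with and without the block, 3 with no filter and 0 to 1 without a replicate number. Of the marker genes these counts were 1, 6, 13 and 0 to 1. The cause of these differences was not tested.

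Relative to GABAergic markers, the difference of *Reln* was -0.48 to -0.23 without a replicate number, -0.32 as the mean within numbers (replicate block) and -0.29 against *Gad1* and *Gad2* alone; that of *Lrp8* to *Vldlr* was 0.01 to 0.06, and 0.04 within numbers. With the longest transcript as the length, 5 of the 9 genes changed rank, and 0 to 2 did without a replicate number. With 3 libraries in each group the exact tests cannot reach 0.05.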
